A study of Rattus norvegicus with 16 samples.

Results

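Oxygen-induced retinopathy is a rat model in which changing oxygen levels disturb the growth of blood vessels over the immature retina. The values described here are the strain difference of the oxygen effect on post-natal day 6. For each gene this is the change with cyclic hyperoxia in Sprague Dawley (SD) retina minus the same change in Fischer (F344) retina. A positive value means that hyperoxia moved the gene more upward, or less downward, in SD than in F344. It was computed for every probe set that names 1 gene, 15097 of the 27342 on the arrays, which gave 14324 genes after 1 probe set per gene was kept. It uses the 8 arrays of day 6 out of 16 in all.

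The 4 groups of day 6 were wild-type pups of both strains, F344 and SD, kept either in cyclic hyperoxia or in room air, with 2 arrays each. Treated litters were placed with the dam in an oxygen chamber within 12 h of birth, and the chamber alternated 24 h at 80% oxygen with 24 h at 21% until the retinae were taken. Controls of the same age breathed room air throughout. The labels do not say which oxygen level the pups breathed last before day 6. Each array held pooled RNA of whole retinae, extracted rat by rat, and the design text mentions 3 rats from 2 litters without settling whether that is the make-up of 1 pool or of both. A p value therefore measures the spread between pools. In pooled whole tissue, fewer cells of a type and less RNA per cell cannot be told apart.

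Retinal vessels of the rat spread from the optic nerve over the first days after birth, led by tip cells that follow vascular endothelial growth factor (VEGF) made by astrocytes in poorly supplied tissue. High oxygen lowers VEGF and stalls the vessels, and the return to lower oxygen leaves unsupplied retina short of oxygen, where the hypoxia-inducible factors (HIF) switch on VEGF, glycolysis and related genes. SD rats are generally known as susceptible to the retinopathy and F344 rats as resistant, and the study set the strains against each other for that reason. The day 6 strain difference asks which retinal transcripts answered the oxygen exposure differently in the susceptible and the resistant strain.

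All values are log2 expression values of the deposited table, in which a difference of 1 is a doubling. Array medians lay between 5.452 and 5.524, and group means near or below them include background, so differences there may be understated. Of 9 retinal markers, 5 were measured, and Nrl, Crx, Rcvrn, Rlbp1 and Pax6 lay between 9.83 and 11.1 on all day 6 arrays. On day 6 the second F344 hyperoxia array (replicate 2) was unlike the others. Its interquartile range (2.81) was the lowest of the 16 arrays, its correlation with its partner (Pearson's r = 0.987 across genes) was the lowest of the 8 pairs, and 70 genes differed from the partner by over 1, against 0 to 34 in the other pairs. Several values below are given with and without it.

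Few genes passed the test. By limma, with Benjamini-Hochberg adjustment over all genes, 8 of 14324 genes (0.0559%) had an adjusted p under 0.05, which is called here. Of these, 7 (0.0489%) were higher in SD relative to F344, and 1 (0.00698%) was lower. At an unadjusted p under 0.05 there were 1641 genes (11.5%), 1151 higher (8.04%) and 490 lower (3.42%). The excess of higher genes depended on scaling and on 1 array. It remained with array quality weights (946 higher and 344 lower) and with a filter on dim probe sets (919 and 233). Without the F344 hyperoxia replicate 2 that was unlike the others, 1188 were higher and 1147 lower. With each array centred on its own median, 569 were higher and 1359 lower, and the median difference over all genes moved from 0.00 to −0.12. Quantile normalization over the genes tested gave 858 and 790. Under both scalings 1 gene remained called, Chrm2, the one that was lower.

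The count of 8 moved with single arrays of the day. Without replicate 1 of F344 hyperoxia it was 181, and without the replicate 2 that stood apart it was 24, and each time all 8 genes were among those called. Of the uncalled genes described below, Vps72, Car4, Acbd5, Zfp458, Pygl, Eno1, Cxcr4, Gnb3, Calb2, Nsdhl, Ndufb3, Mrpl38, Psmd3 and Psmc4 were called without that replicate 1, and Vps72, Grk1 and Gucy2f without replicate 2. It was 0 without F344 room air replicate 1 or 2, SD hyperoxia replicate 1 or 2, or SD room air replicate 1. It was 7, with 3 of the 8 among them, without SD room air replicate 2. Day 5 arrays enter only through the shared estimate of the spread. The count was 5 without any 1 array of F344 or of SD hyperoxia on that day, and 11 without either SD room air array.

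Plbd2, a lysosomal protein of the phospholipase B family (probe set 10758830), showed opposite changes in the 2 strains. Its level was 6.97 and 6.97 in F344 room air and 6.40 and 6.35 in F344 hyperoxia, but 5.75 and 5.91 in SD room air and 6.42 and 6.48 in SD hyperoxia. The hyperoxia arrays of both strains thus lay close together, while the room air arrays lay above them in F344 and below them in SD, with no overlap. The strain difference was 1.21 ± 0.17 (SE, n = 2 arrays per group, limma adjusted p = 0.018). It was the 1 gene whose oxygen effect was called in both strains with opposite signs, a rise of 0.62 in SD (adjusted p = 0.0162) and a change of −0.59 in F344 (adjusted p = 0.0326).

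Fibp, which binds acidic fibroblast growth factor inside cells (10713050), followed the same arrangement. F344 arrays were at 8.11 and 8.13 in room air and 7.57 and 7.63 in hyperoxia, and SD arrays at 6.91 and 6.95 in room air and 7.71 and 7.67 in hyperoxia. All room air values of F344 lay above, and all of SD below, the narrow range of the hyperoxia arrays. The difference was 1.29 ± 0.18 (adjusted p = 0.018), made of a rise of 0.77 in SD (adjusted p = 0.0123) and −0.52 in F344, which did not pass (adjusted p = 0.0561).

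Pkdcc, a secreted protein kinase active in development (10882534), was at 6.66 and 6.80 in F344 room air, 6.33 and 6.30 in F344 hyperoxia, 5.77 and 5.66 in SD room air and 6.31 and 6.24 in SD hyperoxia. Again the hyperoxia arrays of the strains met and the room air arrays did not. Its difference was 0.98 ± 0.15 (adjusted p = 0.0192). The change in SD was called (0.56, adjusted p = 0.0146), and that in F344 was not (−0.42, adjusted p = 0.0572).

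Small GTPases, molecular switches of the cell, were 2 of the called genes. Rnd2, which acts on the cytoskeleton of neurons (10738423), was at 8.36 and 8.34 in F344 room air, 7.78 and 7.94 in F344 hyperoxia, 7.62 and 7.50 in SD room air and 8.17 and 8.15 in SD hyperoxia. Here the SD hyperoxia arrays lay above the F344 hyperoxia arrays without overlap. The difference was 1.09 ± 0.16 (adjusted p = 0.0192). Rhob, which sits on endosomes (10889177), was at 8.81 and 8.87 in F344 room air, 8.23 and 8.21 in F344 hyperoxia, 8.36 and 8.37 in SD room air and 8.63 and 8.68 in SD hyperoxia. Its F344 arrays fell from the highest of the 4 groups in room air to the lowest in hyperoxia. The difference was 0.92 ± 0.15 (adjusted p = 0.033). The fall of 0.62 in F344 was called (adjusted p = 0.0202) and the 0.29 in SD was not (adjusted p = 0.144).

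Dpysl4, a collapsin response mediator protein that acts on the neuronal cytoskeleton (10711928), changed in F344. Its arrays were at 9.09 and 8.97 in F344 room air and 8.17 and 8.27 in F344 hyperoxia, against 8.27 and 8.31 in SD room air and 8.36 and 8.45 in SD hyperoxia. The F344 room air arrays stood above all others. The fall in F344 was 0.81 (adjusted p = 0.0105), the change in SD 0.11 (adjusted p = 0.637), and the difference 0.92 ± 0.15 (adjusted p = 0.033). Slc35a4, of the nucleotide sugar transporter family (10801066), had the largest difference among the called genes, 1.34 ± 0.20 (adjusted p = 0.0192). Its arrays were at 7.87 and 8.22 in F344 room air, 7.29 and 7.59 in F344 hyperoxia, 7.05 and 7.21 in SD room air and 7.83 and 7.89 in SD hyperoxia. The SD hyperoxia arrays overlapped the F344 room air arrays. A second probe set of the gene (10767028), dimmer on average, gave 0.68, in the same direction and smaller.

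Chrm2, the M2 muscarinic acetylcholine receptor (10854544), was the 1 called gene in the other direction. It was at 5.54 and 5.64 in F344 room air, 5.88 and 5.72 in F344 hyperoxia, 6.12 and 6.04 in SD room air and 5.36 and 5.38 in SD hyperoxia. SD retina thus held the highest level in room air and the lowest in hyperoxia. The difference was −0.92 ± 0.15 (adjusted p = 0.033), from a fall of 0.71 in SD (adjusted p = 0.00758) against a rise of 0.21 in F344 (adjusted p = 0.322). The SD hyperoxia mean lies under 5.452, the lowest array median, so the difference may be understated.

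**Figure D1:**
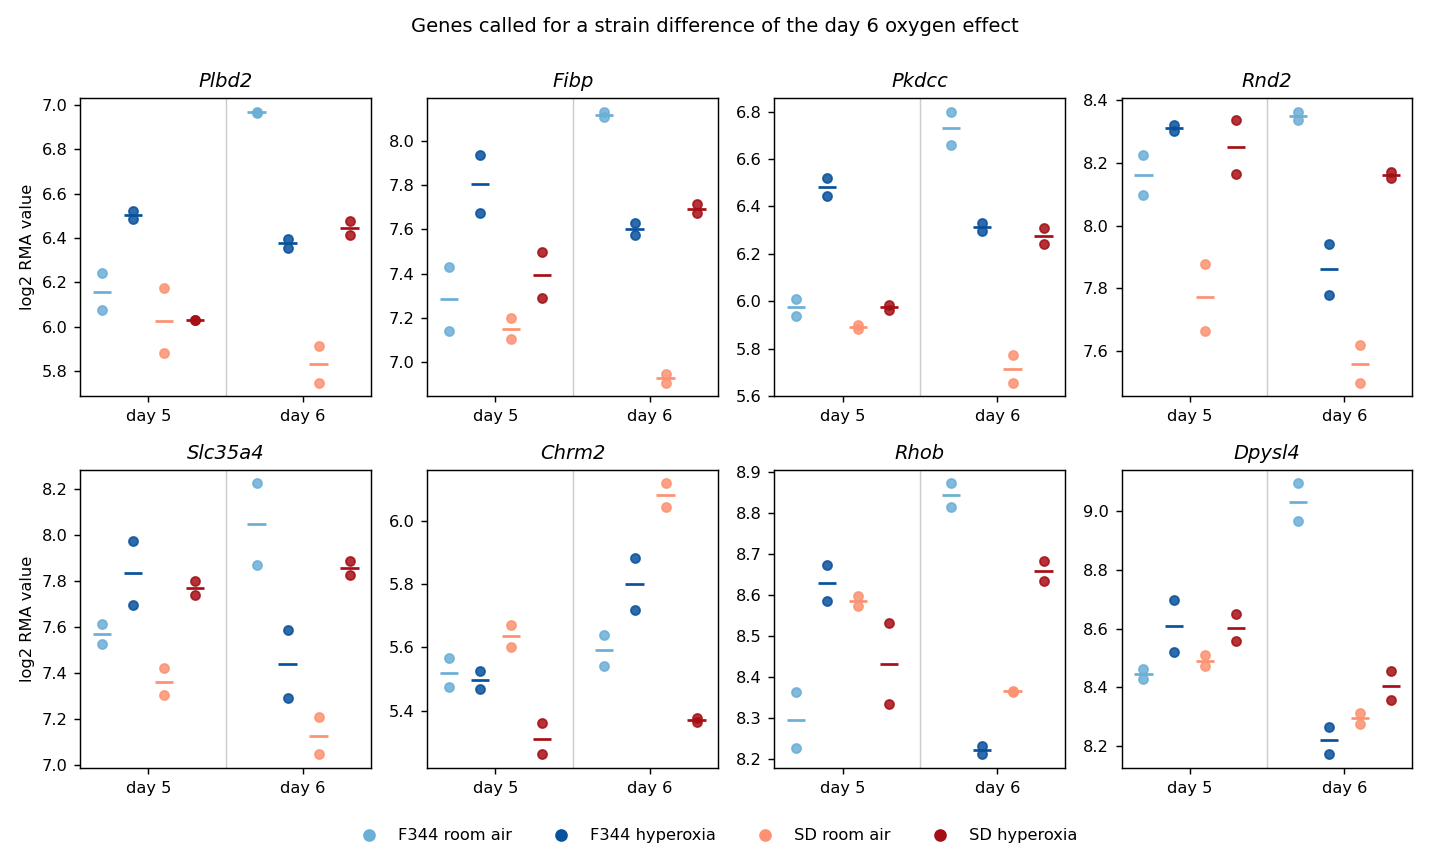
Log2 expression values of the 8 called genes (vertical axes, a scale of its own for each gene), with 1 point per array, a line at the mean of the 2 arrays, day 5 groups on the left and day 6 groups on the right of each panel, and colours for strain and oxygen. On day 6 the F344 room air arrays are the highest group mean of each panel except Chrm2, where SD room air is (6.12 and 6.04); Plbd2, Fibp and Pkdcc arrays of both hyperoxia groups lie at nearly the same level.

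Promoters of the called genes were read from RefSeq (assembly GRCr8). Entries were held for 6 of the 8 genes. Those of Fibp and Pkdcc, which shared the same arrangement, and of Chrm2, which ran the other way, are shown as the 250 bases before the annotated start, 5′ to 3′ on the gene's strand, with CG pairs in capitals.
Fibp, chr1:212197162-212197411, plus strand: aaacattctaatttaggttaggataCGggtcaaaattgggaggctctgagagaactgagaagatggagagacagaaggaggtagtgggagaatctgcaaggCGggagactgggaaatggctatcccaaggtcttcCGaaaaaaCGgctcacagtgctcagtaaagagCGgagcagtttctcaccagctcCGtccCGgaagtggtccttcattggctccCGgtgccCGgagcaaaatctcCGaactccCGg
Pkdcc, chr6:17217489-17217738, minus strand: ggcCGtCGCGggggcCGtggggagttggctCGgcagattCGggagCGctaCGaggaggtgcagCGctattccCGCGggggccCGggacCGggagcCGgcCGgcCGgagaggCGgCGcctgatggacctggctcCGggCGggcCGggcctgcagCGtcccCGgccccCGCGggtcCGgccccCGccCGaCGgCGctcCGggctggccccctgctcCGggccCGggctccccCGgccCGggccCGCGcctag
Chrm2, chr4:65982200-65982449, plus strand: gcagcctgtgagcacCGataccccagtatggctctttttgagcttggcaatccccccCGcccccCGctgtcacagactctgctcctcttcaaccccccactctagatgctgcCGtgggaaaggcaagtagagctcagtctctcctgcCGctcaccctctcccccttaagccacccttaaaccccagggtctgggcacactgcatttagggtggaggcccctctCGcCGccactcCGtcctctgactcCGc
The Pkdcc stretch is 82.8% G or C with 37 CG pairs, against 52.4% with 11 in Fibp and 62% with 9 in Chrm2. The letters ACGTG and GCGTG, cores of the hypoxia response element, were searched on both strands. They were in 0 of the 6 promoters, and either was in 37.9% of the 27457 RefSeq promoters of the same length. Among tested genes with an entry the share was 47% of 11806. It was 57.7% in the higher and 41.9% in the lower genes at an unadjusted p under 0.05. The median G or C content of these promoters was 61.2% in the higher and 56.4% in the lower genes, against 57.2% over all. Both searched words hold a CG pair, and the part of base content in these shares was not tested. The result for the 6 promoters says only that the letters are not in these windows.

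Below the threshold, the next gene in the higher direction was Vps72, a subunit of chromatin complexes that deposit the histone variant H2A.Z, with a difference of 1.10 ± 0.20 (adjusted p = 0.0789). In the lower direction came 7 genes with adjusted p between 0.0905 and 0.0945. Rab27b, a small GTPase of vesicle release, was at 5.15 and 5.40 in F344 room air, 5.76 and 5.67 in F344 hyperoxia, 6.29 and 6.10 in SD room air and 5.85 and 5.53 in SD hyperoxia. Its difference was −0.94 ± 0.20, with the strains meeting in hyperoxia and apart in room air. Acbd5, a peroxisomal membrane protein that binds fatty acyl-CoA, was at 9.31 and 9.29 in F344 room air and between 9.80 and 10.07 on the other 6 arrays of the day. Its difference was −0.71 ± 0.16. The others were the zinc finger gene Zfp365 (−0.88), Taf1d, of the RNA polymerase I machinery (−0.84), the membrane carbonic anhydrase Car4 (−0.81), the metabotropic glutamate receptor Grm5 (−0.81) and Zfp458 (−0.87). Car4 and Grm5 lay below the array medians, and Zfp458 was also dropped by the filter on dim probe sets.

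The arrangement seen in the called genes was measured over all genes by the strain gap, SD minus F344, on each side of the difference. The strain difference of the oxygen effect equals the gap in hyperoxia minus the gap in room air, so these are its parts and no separate support. Among room air arrays of day 6 the gap was called in 1655 genes (11.6%), and among hyperoxia arrays in 262 (1.83%). The room air count was 510 and 441 without F344 room air replicates 1 and 2 and 738 without SD room air replicate 1. The hyperoxia count was 1266 and 141 without F344 hyperoxia replicates 1 and 2, and 37 and 71 without SD hyperoxia replicates 1 and 2. All 8 called genes had a called room air gap, larger in size than their hyperoxia gap, and Rhob was the 1 of them with a called hyperoxia gap (0.44, adjusted p = 0.0476). The room air gap was −1.14 in Plbd2, −1.19 in Fibp and −1.02 in Pkdcc, and their hyperoxia gaps were 0.07, 0.09 and −0.04. The room air gap was the larger one in 56.9% of all genes, in 70.7% of the 1151 higher and in 67.1% of the 490 lower genes at an unadjusted p under 0.05.

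Within each strain, the oxygen effect of day 6 was called in 400 genes in SD (2.79%), 319 up and 81 down, and in 170 in F344 (1.19%), 49 up and 121 down. The SD count was 0 without SD hyperoxia replicate 1 or 2 or SD room air replicate 1, 221 without SD room air replicate 2, 994 without either F344 hyperoxia array and 260 without either F344 room air array of day 6. The F344 count was 1621 without F344 hyperoxia replicate 1, and 0 without its replicate 2 or either F344 room air array. It was 61 without either SD hyperoxia array of day 6 and 31 without either SD hyperoxia array of day 5. The lists shared 19 genes, 4.75% of the SD list and 11.2% of the F344 list. Of these, 14 rose in both strains, 4 fell in both, and Plbd2 was the one with opposite signs. Fam162a and Higd1a, both hypoxia-induced mitochondrial genes, were examples of shared rises, chosen after their values were seen, with strain differences of 0.13 and −0.10 (adjusted p = 0.872 and 0.886).

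Across genes, effects of opposite sign were common. The effect was of opposite sign in 39.8% of all genes. In 597 genes (4.17%) both SD hyperoxia arrays lay above both SD room air arrays while both F344 hyperoxia arrays lay below both F344 room air arrays. The reverse held in 399 (2.79%). All 8 called genes belong to these sets. The lowest 5% of differences lay below −0.39 and the highest 5% above 0.53, and 37 genes exceeded 1 in size, 30 higher and 7 lower. The most extreme, chosen after their values were seen, were Pole3 (1.66, adjusted p = 0.124), a subunit of DNA polymerase epsilon with F344 hyperoxia arrays at 6.50 and 5.73, and Trpm1 (−1.36, adjusted p = 0.317), the cation channel of ON bipolar cells. Neither passed the test.

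**Figure D2:**
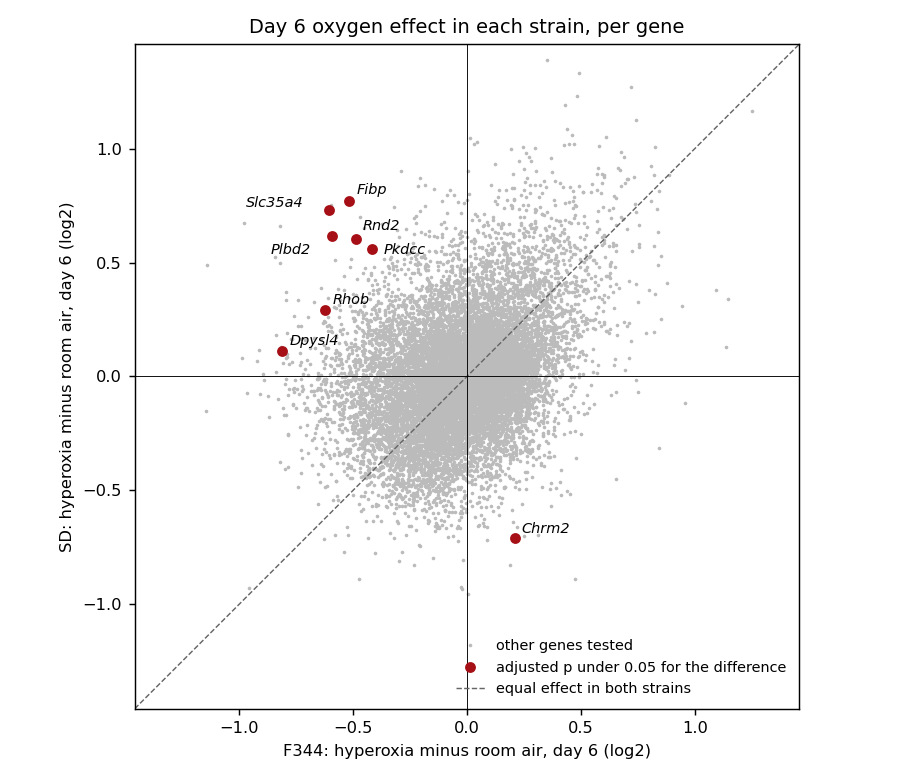
Oxygen effect on day 6, hyperoxia minus room air in log2, in F344 (horizontal axis) and in SD (vertical axis), with 1 grey point for each of 14324 genes, red points for the 8 called genes, and a dashed line where both effects are equal. Distance above the line is a positive strain difference: 7 called genes lie at the upper left, up in SD and down in F344, and Chrm2 lies in the lower right.

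The same contrast on day 5 uses other arrays. Since the chamber switched every 24 h, the last oxygen level may differ between the days, and it cannot be told apart from age. The mean of the hypoxia-responsive genes described below was 7.05 to 7.12 on hyperoxia arrays of day 5 and 7.64 to 7.81 on those of day 6. In room air it was 7.45 to 7.56 on both days. The part of the oxygen level was not tested. By limma 0 genes (0%) were called for the day 5 contrast, with a smallest adjusted p of 0.641 and 879 genes at an unadjusted p under 0.05. The day 5 difference was −0.34 in Plbd2, −0.28 in Fibp, −0.43 in Pkdcc, −0.49 in Rhob, −0.05 in Dpysl4, 0.33 in Rnd2, 0.14 in Slc35a4 and −0.30 in Chrm2. The difference between the days was itself tested. It was called in 3 genes (0.0209%), all of them among the 8, namely Plbd2 (1.55), Rhob (1.40) and Pkdcc (1.40), each at an adjusted p of 0.0352. Fibp came next among the 8 (1.56, adjusted p = 0.0522). The count of 3 was 12 without F344 hyperoxia replicate 1 of day 6, and 0 without any 1 of the other day 6 arrays or any 1 of the day 5 arrays other than SD room air replicate 1.

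Room air arrays differed between the days more often in F344 than in SD by count. The day 6 minus day 5 change in room air was called in 1193 genes in F344 (8.33%). In SD it was called by limma in 0 (0%), with 722 at an unadjusted p under 0.05. Whether the strains differed in this change was tested as the room air gap of day 6 minus that of day 5, which was called in 8 genes (0.0559%). These included Plbd2 (−1.01), Fibp (−1.06) and Pkdcc (−0.93), each at an adjusted p of 0.0422. In hyperoxia the corresponding count was 0 (0%), with 496 at an unadjusted p under 0.05. On day 5 the gap was called in 118 genes in room air (0.824%) and in 184 in hyperoxia (1.28%). The counts of this paragraph were not repeated with arrays left out or under the other alternatives. Plbd2 in F344 room air was at 6.07 and 6.24 on day 5 and 6.97 and 6.97 on day 6, while in SD room air it was at 5.88 and 6.17 and then 5.75 and 5.91. Its hyperoxia arrays went from 6.52 and 6.48 to 6.40 and 6.35 in F344 and from 6.03 and 6.03 to 6.42 and 6.48 in SD.

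Hypoxia-responsive genes outside glycolysis, targets of HIF, had 0 called members of 30. At an unadjusted p under 0.05, 7 were higher (23.3%, against 8.04% of all genes) and 2 lower (6.67%, against 3.42%). The list's median difference was 0.07, against 0.00 over all genes, and −0.05 with arrays centred on their medians. The median oxygen effect was 0.25 in SD and 0.21 in F344. Adm, the vasodilator peptide adrenomedullin, was at 4.86 and 4.94 in SD room air and 5.63 and 5.83 in SD hyperoxia, a rise of 0.83 (adjusted p = 0.0123). In F344 it was at 4.68 and 4.70, and 4.95 and 4.84. All but the SD hyperoxia values lie under 5.452, the lowest array median. The SD hyperoxia arrays stood above all others, and the difference of 0.62 ± 0.20 did not pass (adjusted p = 0.215).

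Egln3, the prolyl hydroxylase that marks HIF for degradation, was at 6.02 and 6.24 in SD room air and 6.86 and 7.12 in SD hyperoxia, a rise of 0.85 (adjusted p = 0.0125). Its F344 arrays were at 5.93 and 6.04 in room air and 6.29 and 6.20 in hyperoxia, so SD hyperoxia again stood highest. The difference was 0.60 ± 0.21 (adjusted p = 0.258). Plod2, a lysyl hydroxylase of collagen, had the opposite sign at −0.59 ± 0.20 (adjusted p = 0.243), with 9.77 and 9.47 in SD room air and 8.92 to 9.41 on the other arrays. Other members at an unadjusted p under 0.05, chosen after their values were seen, were P4ha2 (0.58), Egln1 (0.56), Bhlhe40 (0.55), Mxi1 (0.50), Ppfia4 (0.40) and Ak4 (−0.47).

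The main oxygen-regulated angiogenic gene did not show a strain difference beyond its error. Vegfa, the VEGF gene, was at 9.10 and 9.38 in F344 room air, 9.33 and 9.37 in F344 hyperoxia, 9.08 and 8.93 in SD room air and 9.19 and 9.29 in SD hyperoxia. The groups of F344 overlapped, those of SD did not, and the difference was 0.12 ± 0.19 (adjusted p = 0.858). Slc16a3, which exports lactate, gave 0.52 ± 0.32 (adjusted p = 0.573), and 0.32 without F344 hyperoxia replicate 2. Slc2a1, which brings glucose into cells, gave 0.40 ± 0.29 (adjusted p = 0.66). Pdk1, a kinase that holds pyruvate back from mitochondria, gave 0.09 ± 0.16 (adjusted p = 0.871), and hexokinase Hk2 −0.10 ± 0.54 (adjusted p = 0.966). Epo gave −0.10 ± 0.18 (adjusted p = 0.894) at a level below the array medians.

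Of 22 genes of glycolysis and glucose uptake, 0 were called. At an unadjusted p under 0.05, 5 were higher (22.7%, against 8.04% of all genes) and 0 lower. The median difference was 0.17 and fell to 0.02 without the F344 hyperoxia array that stood apart. Pygl, liver glycogen phosphorylase, was at 6.15 and 6.10 in F344 room air, 6.50 and 6.02 in F344 hyperoxia, 7.16 and 7.08 in SD room air and 7.87 and 7.95 in SD hyperoxia. It was higher in SD on both sides, with called gaps of 0.99 in room air and 1.64 in hyperoxia (adjusted p = 0.000982 and 1.49e-05). The difference of 0.65 ± 0.21 did not pass (adjusted p = 0.223), and was 0.41 without F344 hyperoxia replicate 2. Pkm, pyruvate kinase, gave 0.51 ± 0.17 (adjusted p = 0.22), with 0.58 and 0.50 from the other probe sets of the gene. Enolase Eno1 gave 0.51 ± 0.20 (adjusted p = 0.318), with F344 hyperoxia arrays at 12.35 and 11.85, and 0.26 without the second of these.

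**Figure D3:**
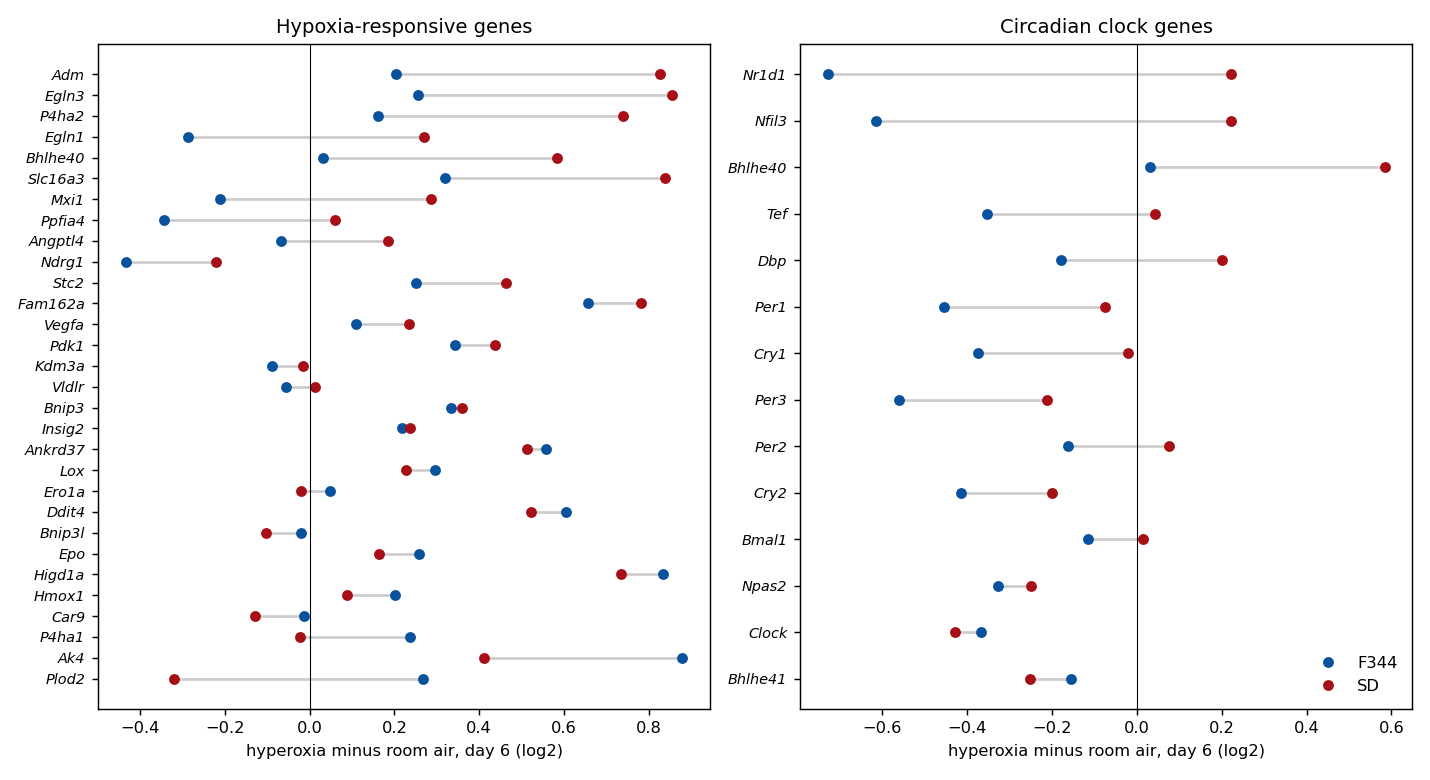
Oxygen effect on day 6, hyperoxia minus room air in log2 (horizontal axis), in F344 (blue) and SD (red) for each measured member of the hypoxia-responsive list (left, 30 genes) and the circadian clock list (right, 14 genes), ordered by the strain difference, with a grey line joining the strains. Most hypoxia-responsive genes lie right of 0 in both strains, with Adm and Egln3 farther right in SD (0.83 and 0.85), while most clock genes lie left of 0 in F344 and near 0 in SD.

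Among 44 angiogenic ligands and receptors, 0 were called, and the median difference was −0.03. At an unadjusted p under 0.05, 4 were higher (9.09%, against 8.04% of all genes) and 3 lower (6.82%, against 3.42%). Cxcr4, a chemokine receptor also used by endothelial tip cells, came closest to the threshold. It was at 8.84 and 8.77 in F344 room air, 8.73 and 8.59 in F344 hyperoxia, 7.79 and 8.09 in SD room air and 8.79 and 8.74 in SD hyperoxia. The SD room air arrays lay below all others, and SD retina rose by 0.82 with hyperoxia (adjusted p = 0.0141). The difference was 0.97 ± 0.21 (adjusted p = 0.0941), and 1.04 and 0.90 without F344 hyperoxia replicates 1 and 2. It was called in 0 of the 9 alternatives other than leaving out an array. Fgfr1, a fibroblast growth factor receptor, gave 0.61 ± 0.18 (adjusted p = 0.181).

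Igf1, insulin-like growth factor 1, which supports retinal vessel growth, ran the other way. It was at 7.39 and 7.60 in F344 room air, 7.85 and 7.66 in F344 hyperoxia, 8.15 and 8.19 in SD room air and 7.88 and 7.81 in SD hyperoxia. The strains met in hyperoxia and not in room air, where the gap of 0.68 was called (adjusted p = 0.0037). The difference of −0.59 ± 0.18 did not pass (adjusted p = 0.194). Angpt2, which loosens vessel walls, gave −0.17 ± 0.21 (adjusted p = 0.824), with its F344 hyperoxia arrays at 6.04 and 5.50.

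Vessel and supporting cell lists had 0 called members. Their shares at an unadjusted p under 0.05 stand against 8.04% higher and 3.42% lower among all genes. Of 29 endothelial markers, 0 were higher and 2 lower (6.9%), and the median difference was −0.02. These were the receptors Adgrf5 (−0.69 ± 0.27, adjusted p = 0.326) and Tek (−0.51 ± 0.21, adjusted p = 0.357). Tek, the angiopoietin receptor, was at 5.33 and 5.32 in SD room air and 4.50 and 4.52 in SD hyperoxia, a fall of 0.81 (adjusted p = 0.0151). In F344 it was at 4.91 and 4.97, and 4.83 and 4.45. All these values lie under 5.452, the lowest array median. So do the day 6 mean levels of the endothelial list (4.94 to 5.22) and the pericyte list (4.95 to 5.14), where differences may be understated. Of 15 tip cell genes, 3 were higher (20%), Cxcr4, Adm and the small GTPase gene Rhoc (0.63 ± 0.25, adjusted p = 0.318), and the first pair also stands in the angiogenic list. Of 15 pericyte and smooth muscle markers 1 was lower, Myh11, smooth muscle myosin (−0.38, adjusted p = 0.38). Of 17 basement membrane and matrix genes 0 passed an unadjusted p under 0.05.

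Glial lists had 0 called members. At an unadjusted p under 0.05, 8.04% of all genes were higher and 3.42% lower, and the shares here rest on few genes. Of 12 astrocyte markers 2 were lower (16.7%), Id3, a brake on differentiation factors (−1.01 ± 0.34, adjusted p = 0.243), and the water channel Aqp4 (−0.34, adjusted p = 0.43), which is also in the Muller glia list. Id3 was at 4.79 and 5.32 in F344 room air and 6.23 and 6.16 in F344 hyperoxia, a rise of 1.14 (adjusted p = 0.0396), while its SD arrays stayed between 5.15 and 5.47. Gfap, the filament protein of astrocytes and stressed Muller glia, gave 0.47 ± 0.23 (adjusted p = 0.46), or 0.29 without F344 hyperoxia replicate 2, at values of 4.59 to 5.18 that overlapped between groups. Edn2, an endothelin of stressed retina, gave 0.02 ± 0.16 (adjusted p = 0.977) at values below the array medians. Of 15 Muller glia markers 1 was higher (6.67%) and 2 lower (13.3%), with a median of 0.07 that was −0.18 without F344 hyperoxia replicate 2. Of 26 microglia and macrophage markers 1 was lower, the Fc receptor subunit Fcer1g (−0.61, adjusted p = 0.22).

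Rod and bipolar genes had negative medians. Of 18 rod genes 0 were called, 1 was higher (5.56%) and 4 lower (22.2%, against 3.42% of all genes) at an unadjusted p under 0.05. The median difference was −0.17, from −0.21 in SD and 0.11 in F344. It was 0.01 without F344 hyperoxia replicate 1 and −0.41 without replicate 2, so a single array set its sign. Grk1, a kinase of photoreceptors, gave −0.97 ± 0.33 (adjusted p = 0.258). Its F344 hyperoxia arrays, at 7.79 and 6.80, lay further apart than the other pairs of that gene on day 6. Without the second of them the difference was −1.46, and without the first it was −0.47. Nrl, the factor that makes a photoreceptor a rod, was the one higher, at 0.50 ± 0.17 (adjusted p = 0.233). It was at 9.83 and 9.83 in SD room air and 10.52 and 10.27 in SD hyperoxia, a rise of 0.57 (adjusted p = 0.021), against 10.16 to 10.32 on all F344 arrays. Of 14 bipolar genes 0 were higher and 2 lower (14.3%), Prkca (−0.79 ± 0.25, adjusted p = 0.213) and Trpm1. The median was −0.24 and became 0.03 without F344 hyperoxia replicate 1.

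Neurons of the inner retina were mixed. Shares below, at an unadjusted p under 0.05, stand against 8.04% higher and 3.42% lower among all genes. Of 21 amacrine and horizontal cell genes 3 were higher (14.3%) and 0 lower, led by the calcium-binding protein Calb2 (0.86 ± 0.21, adjusted p = 0.117). Calb2 was at 10.17 and 10.23 in F344 room air, 9.89 and 9.47 in F344 hyperoxia, 9.40 and 9.66 in SD room air and 9.84 and 9.91 in SD hyperoxia. Its F344 room air arrays stood above the rest. Of 19 ganglion cell genes 2 were higher (10.5%) and 1 lower (5.26%). The neuronal tubulin Tubb3 gave 0.91 ± 0.23 (adjusted p = 0.128) and the neurofilament Nefm −0.65 ± 0.23 (adjusted p = 0.274). Of 14 cone genes 1 was higher (7.14%), Gnb3 (0.68, adjusted p = 0.219), and 2 were lower (14.3%), Gucy2f (−0.95, adjusted p = 0.233) and Pde6c (−0.48, adjusted p = 0.296). Without F344 hyperoxia replicate 1, Gnb3 gave 0.91 and Gucy2f −0.46, and without replicate 2 they gave 0.45 and −1.43.

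Circadian clock genes had the highest median difference of the 35 lists, 0.35, with 5 of 14 higher at an unadjusted p under 0.05 (35.7%, against 8.04% of all genes) and 0 lower. None was called. The median was 0.23 with arrays centred and between 0.22 and 0.43 without any 1 array. The median oxygen effect was −0.36 in F344 and 0.00 in SD. The clock is a loop in which Clock and Bmal1 switch on repressors, and its genes rise and fall over the day, while the labels give no hour at which retinae were taken. Whether sampling hour differed between groups was not tested. Nr1d1, the repressor REV-ERB alpha, was at 7.65 and 7.51 in F344 room air, 6.86 and 6.85 in F344 hyperoxia, 6.65 and 6.97 in SD room air and 6.84 and 7.23 in SD hyperoxia. The F344 room air arrays stood above all others, and the fall of 0.73 in F344 was called (adjusted p = 0.0388). The difference was 0.95 ± 0.22 (adjusted p = 0.0993). Nfil3, a repressor of clock output, had the same high F344 room air arrays, 7.54 and 7.28, above all others of the day, and a difference of 0.84 ± 0.23 (adjusted p = 0.151). Bhlhe40, also in the hypoxia list, differed from both, with 6.13 and 6.18 in SD hyperoxia and 5.43 to 5.78 elsewhere (0.55 ± 0.20, adjusted p = 0.266).

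Genes of protein making and breakdown had positive medians. Of 72 cytosolic ribosomal protein genes 0 were called, 9 were higher (12.5%, against 8.04% of all genes) and 0 lower. Their median was 0.18 (0.06 with arrays centred). It was 0.09 without F344 hyperoxia replicate 1 and 0.32 without replicate 2. The median effect was 0.45 in SD and 0.28 in F344. The effect was called upward in 20 members in SD and 0 in F344, against 319 of all genes in SD (2.23%) and 49 in F344 (0.342%). The list's mean level was 9.72 and 9.77 in SD room air and 10.02 to 10.43 on the other 6 arrays of the day. Rps14 gave 0.99 ± 0.25 (adjusted p = 0.128), with 8.61 and 9.11 in SD room air against 9.54 to 10.06 elsewhere. Its other probe sets gave 0.91 and 0.88. Rpl13a gave 0.62 ± 0.15 (adjusted p = 0.111) and Rplp0 0.79 ± 0.24 (adjusted p = 0.187). Probes of ribosomal genes can share targets with processed copies elsewhere in the genome, so these values are uncertain.

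Of 37 proteasome subunit genes 5 were higher (13.5%, against 8.04% of all genes) and 0 lower. Their median was 0.22 (0.10 with arrays centred). The oxygen effect was called upward in 9 of them in SD and 0 in F344, to be read against the 2.23% and 0.342% of all genes. Psmd3, a subunit of the regulatory cap, was at 7.65 and 7.67 in SD room air and 8.12 to 8.54 on the other 6 arrays (0.79 ± 0.19, adjusted p = 0.105). Psmc4, an ATPase of the cap, was at 8.57 and 8.59 in SD room air and gave 0.92 ± 0.24 (adjusted p = 0.14), although F344 hyperoxia replicate 2, at 8.58, was as low. Of 67 mitochondrial ribosomal protein genes 7 were higher (10.4%), near the 8.04% of all genes, and the median was 0.01. Mrpl38 led them (1.02 ± 0.22, adjusted p = 0.0945). Of 68 respiratory chain subunits 2 were higher and 2 lower (2.94% each), although their median effect was 0.37 in SD and 0.34 in F344. Among these, Ndufb3 of complex I rose by 1.15 in F344 (adjusted p = 0.0105) and changed by 0.34 in SD (adjusted p = 0.238), a difference of −0.81 ± 0.21 (adjusted p = 0.14).

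Progenitor and division genes also had positive medians. Their shares at an unadjusted p under 0.05 stand against 8.04% higher among all genes. Of 18 retinal progenitor and fate genes 2 were higher (11.1%) and 0 lower, with a median of 0.22, from −0.27 in F344 and 0.03 in SD (0.13 without SD room air replicate 2). They were Foxn4 (0.54, adjusted p = 0.339), which directs progenitors to amacrine and horizontal fates, and Lhx2 (0.46, adjusted p = 0.361), which keeps progenitors. Of 34 cell cycle genes 5 were higher (14.7%) and 0 lower. Their median of 0.12 was 0.35 without SD room air replicate 1 and −0.08 without its replicate 2, and 0.00 with arrays centred. Cdc25b, a phosphatase that starts mitosis, was at 7.87 and 7.69 in F344 room air and 6.71 to 7.19 on the other arrays, a fall of 0.83 in F344 (adjusted p = 0.0338) and a difference of 0.73 ± 0.24 (adjusted p = 0.233). Mcm7, of the DNA replication helicase, gave 0.65 ± 0.17 (adjusted p = 0.14).

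**Figure D4:**
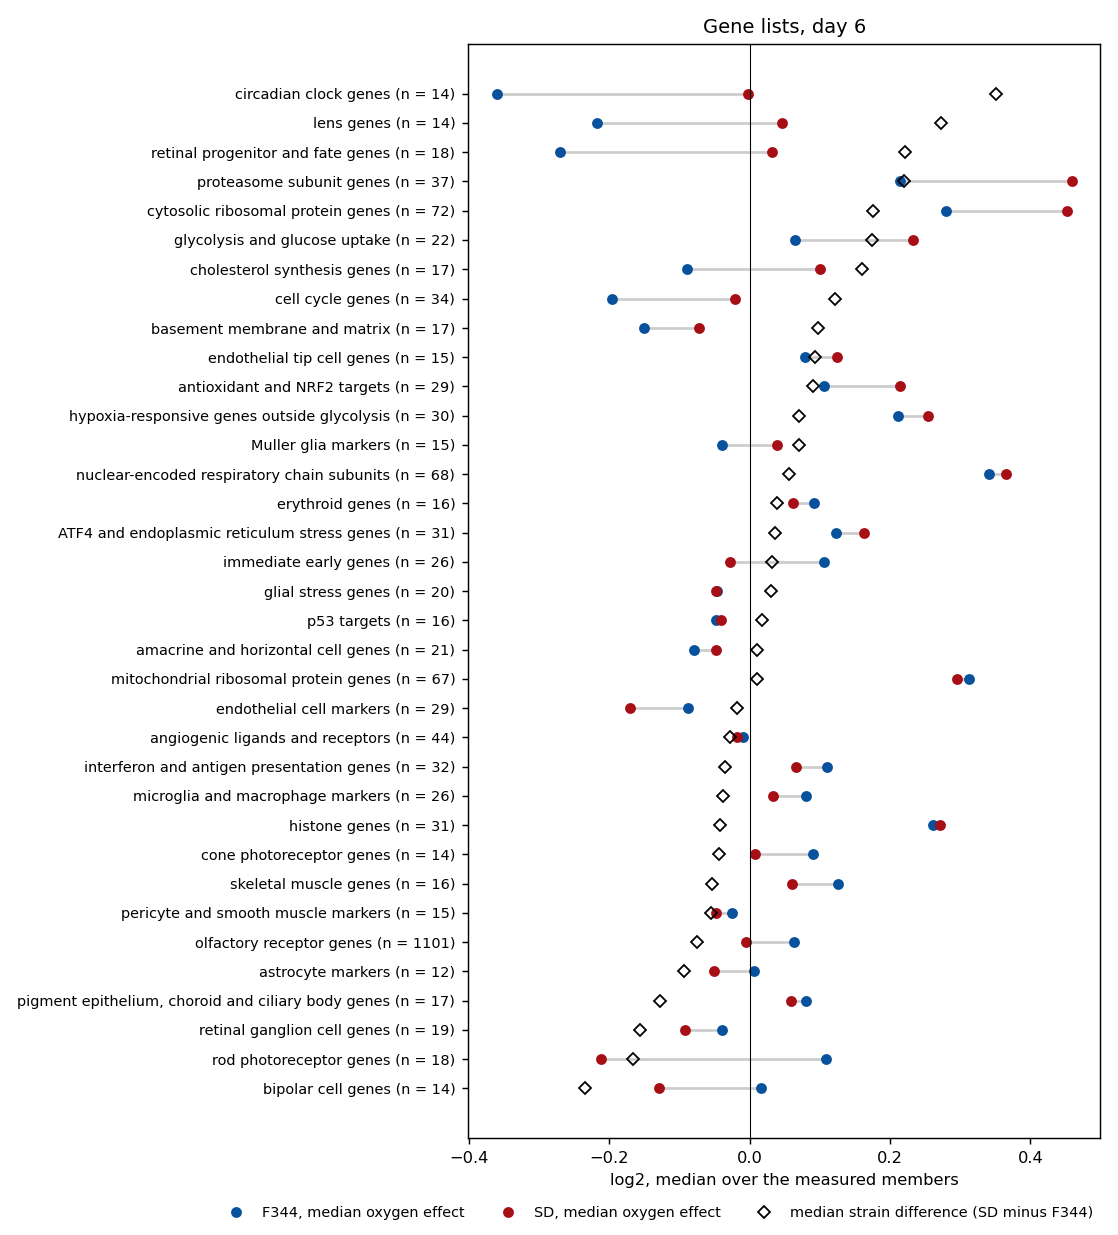
Medians in log2 (horizontal axis) over the measured members of each of 35 gene lists (rows, with the number measured), for the day 6 oxygen effect in F344 (blue) and SD (red), joined by a grey line, and for the strain difference per gene (open diamonds), which need not equal the gap between the medians. Clock genes have the highest median difference (0.35) and bipolar cell genes the lowest (−0.24), and all genes together have 0.00.

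Markers of tissue next to the retina were measured as a check on dissection. Lens genes had a median difference of 0.27, with 0 of 14 at an unadjusted p under 0.05. It was 0.09 without F344 hyperoxia replicate 1, 0.48 without replicate 2 and 0.16 without SD room air replicate 1. Their mean level was 4.65 and 5.08 on the F344 hyperoxia arrays, 5.00 and 5.23 in F344 room air, 4.89 and 4.96 in SD hyperoxia and 4.68 and 4.95 in SD room air. The crystallin Cryba1 had a difference of 1.63 ± 0.83 (adjusted p = 0.483), with 5.36 and 7.01 in F344 hyperoxia. The difference was 0.81 without the first of these and 2.45 without the second. Of 17 pigment epithelium, choroid and ciliary body genes 1 was lower, Rpe65 (−0.75, adjusted p = 0.223), at values of 4.20 to 5.08. Of 16 skeletal muscle genes 0 passed an unadjusted p under 0.05. Of 16 erythroid genes 1 was higher (6.25%, against 8.04% of all genes) and 3 lower (18.8%, against 3.42%). Their part in the called genes was not tested.

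The remaining lists also had 0 called members. Among all genes, 8.04% were higher and 3.42% lower at an unadjusted p under 0.05. At an unadjusted p under 0.05, antioxidant and NRF2 targets had 4 of 29 higher (13.8%), among them the glutathione peroxidase Gpx4 (0.53, adjusted p = 0.315). Interferon and antigen presentation genes had 3 of 32 (9.38%), led by the interferon-response factor Irf9 (0.69, adjusted p = 0.135). p53 targets had 2 of 16 (12.5%), including the cell cycle inhibitor Cdkn1a (0.80, adjusted p = 0.26). Glial stress genes had 1 of 20, the progenitor filament gene Nes (0.52, adjusted p = 0.292), cholesterol synthesis genes 1 of 17, Nsdhl (0.66, adjusted p = 0.296, and 0.33 without F344 hyperoxia replicate 2), and ATF4 and endoplasmic reticulum stress genes 1 of 31, Shmt2 (0.55, adjusted p = 0.258). Histone genes had 2 of 31. Immediate early genes had 2 of 26 higher and 2 lower (7.69% each), and among them Jund, a subunit of the AP-1 factor, came near the threshold (0.71 ± 0.16, adjusted p = 0.0945) with 7.27 and 7.40 in F344 room air against 6.51 to 7.04 elsewhere. Of 1101 olfactory receptor genes, many of which have near-identical copies and are uncertain, 9 were higher (0.817%) and 36 lower (3.27%). Their mean level was 4.25 and 4.39 on the F344 hyperoxia arrays and 4.23 to 4.30 on the other arrays of the day. These lie below the array medians, so the values are mostly background.

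The strain difference also ran with the length of the gene. Over 8224 genes above the lowest array median, sorted by genomic span in RefSeq into 5 groups of equal size, the median difference was 0.19 in the shortest, 0.18, 0.09 and 0.01 in the next 3, and −0.07 in the longest. The rank correlation of span and difference was −0.297 across genes, which are not independent, and −0.285 after quantile normalization. In the shortest group 21.4% of genes were higher and 1.95% lower at an unadjusted p under 0.05, and in the longest 3.53% and 6.5%. Of the called genes, the 7 higher ones had a median span of 4.52 kb, against 18.0 kb over all genes. As a level per array, the mean of the shortest group minus that of the longest was −0.28 and −0.33 in SD room air, −0.07 and −0.08 in F344 room air, 0.19 and 0.04 in SD hyperoxia, and −0.01 and 0.18 in F344 hyperoxia. SD room air thus stood lowest and the other groups lay above it without overlap. F344 hyperoxia replicate 2 lay above its partner. On day 5, SD room air was lowest too, at −0.28 and −0.31, against −0.24 to 0.03 on the other arrays. Its part in the results above was not tested.

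**Figure D5:**
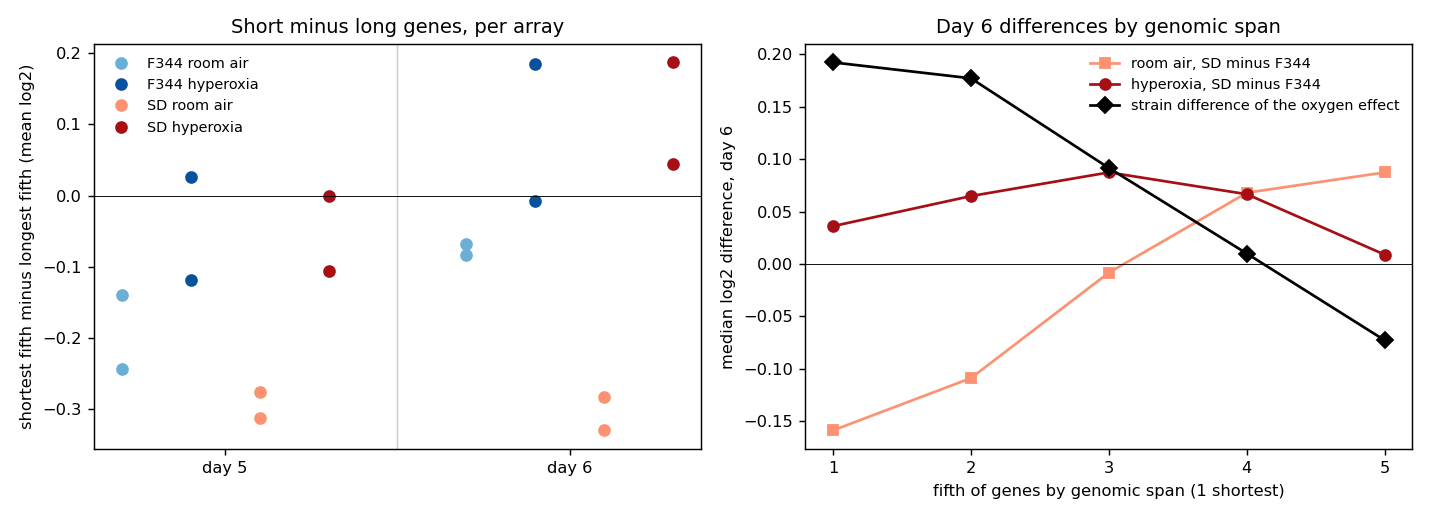
Left, mean log2 level of the shortest of 5 equal groups of genes minus that of the longest (vertical axis), 1 point per array, for day 5 and day 6 and coloured by strain and oxygen. Right, median over genes of the day 6 strain gap in room air, of the gap in hyperoxia and of the strain difference of the oxygen effect (vertical axis, log2), by group of genomic span (horizontal axis, shortest first): the difference goes from 0.19 to −0.07, and the room air gap from −0.16 to 0.09.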

How the data were processed

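Retinal RNA pools were measured on Affymetrix gene arrays. The deposited log2 values were made by the authors with Partek 6.4 and RMA, per the submitters' processing notes. RMA corrects background and equalises array distributions, so a change common to most transcripts would be removed. Scanner files were not analysed here.

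Gene names came from the annotation of the array platform. Of 27342 probe sets it gave 1 symbol to 15097, several to 323 and did not list 11922. Of the first, 15067 were matched by Entrez identifier to RefSeq (GRCr8). For 499 genes with over 1 probe set the brightest was kept. Genes were tested two-sided with limma 3.58.1 (R 4.3.3), 1 mean per group over all 16 arrays, with 8 residual and 7.41 prior degrees of freedom and Benjamini-Hochberg adjustment over 14324 genes. The number of arrays limits the precision. The code was tested on simulated data.

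The members and gene lists were chosen with earlier results of these data known, and no list was tested. Genes are named if called, if among the 8 smallest p in a direction, if among the 3 smallest p of a described list, or from a set of 12 hypoxia, vascular and glial genes; others are marked as chosen after their values were seen. The room air and hyperoxia comparisons between days were also added then. Alternatives covered arrays left out, the replicate block, array weights, scaling, a filter on dim probe sets, the choice of probe set, limma-trend and day 6 arrays alone.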

Additional observations from a re-analysis of the deposited data

Results flagged for a closer look

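The test of the strain difference of the day 6 oxygen effect, SD minus F344, picked out 8 genes. The differences were 1.21 in Plbd2, 1.29 in Fibp, 0.98 in Pkdcc, 1.09 in Rnd2, 1.34 in Slc35a4, 0.92 in Rhob, 0.92 in Dpysl4 and −0.92 in Chrm2. The contrast between day 6 and day 5 of that strain difference picked out 3 genes, at 1.40 in Pkdcc, 1.55 in Plbd2 and 1.40 in Rhob.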

How the results depend on the processing

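Without any 1 array, the count of called genes ranged from 0 to 181 for the day 6 strain difference, from 0 to 994 for the oxygen effect in SD, from 0 to 1621 for that in F344, from 37 to 1266 for the strain gap in hyperoxia, from 441 to 2277 for that in room air, from 0 to 2 for the day 5 strain difference and from 0 to 12 for the difference between days. In each of these fits 1 group held a single array, which adds nothing to the estimate of the spread, so larger counts are no sign of stability. Leaving out day 5 arrays was chosen after seeing the data. The 8 calls of the day 6 difference became 0 with day 6 arrays only or with array quality weights, and 1 with quantile normalization or median centring. They became 5 with a filter on dim probe sets, 3 with limma-trend, and 14 when every probe set was tested. Of the 14, 6 were probe sets other than those kept for the genes tested. With a replicate block 5 remained of the 8. The labels do not say that replicate numbers pair the arrays. On day 6, deviations of same-numbered arrays correlated between −0.238 and 0.395 and passed 0.1 in 1 of 6 pairs of groups. With 2 arrays per group this cannot settle whether they are paired. The SD count of 400 became 81 with day 6 arrays only and 800 with array weights. The F344 count of 170 became 0 with day 6 arrays only or array weights, 111 with every probe set and 74 with limma-trend. The gap count of 262 in hyperoxia became 117 with day 6 arrays only and 67 with array weights. The 3 calls between days became 0 with the replicate block, array weights, quantile normalization, median centring, the filter, every probe set or limma-trend. The cause was not tested.

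Of 3094 values of 125 named genes under alternatives, 2958 kept direction and side of the threshold, 104 lost the call, 19 gained it and 13 changed sign. Only a called gene can lose a call, so all 104 losses fall on the called genes. Most of the 3094 values are of uncalled genes and say nothing on how far calls held. In the 9 alternatives other than leaving out an array, Plbd2, Fibp and Slc35a4 were called in 5. Pkdcc, Rnd2 and Chrm2 were called in 4 of the 9, and Rhob and Dpysl4 in 2. None of the 13 changes of sign was in a called value. They belong to 6 genes, whose values without any 1 array ran from −0.0167 to 0.265 for Vegfa, −0.260 to 0.0688 for Epo (also 0.0586), −0.436 to 0.101 for Angpt2, −0.0466 to 0.0917 for Edn2 (also −0.0142), −0.692 to 0.499 for Hk2 (also 0.251, 0.284 and 0.0348) and −0.00361 to 0.193 for Pdk1. Median centring turned Edn2 to −0.0977 and Pdk1 to −0.0257. Adjusted p under alternatives ran from 0.0169 to 0.166 for Plbd2, 0.0174 to 0.149 for Fibp and 0.0224 to 0.316 for Chrm2. Of 864 list medians 78 moved. Dim genes are limited by background.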
